A study of Mus musculus with 4 samples.

Results

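Genes of leukotriene synthesis and sensing, 8 in number, were followed in mouse lung ILC2s, innate lymphoid cells of the type 2 group that live in the tissue and are known for making IL-5 and IL-13. They were chosen by name as Alox5, Alox5ap, Ltc4s, Lta4h, Cysltr1, Cysltr2, Ltb4r1 and Fpr2, and all 8 were found among the 38697 genes of the table. KO mice carried R5 together with a floxed Nrp1 gene (R5/+Nrp1f/f), Nrp1 being the gene of the co-receptor neuropilin-1. The WT mice carried R5 alone (R5/+), so R5 was present in both groups. R5 is an allele at the Il5 locus that reports Il5 expression and drives Cre recombinase, so deletion is directed to cells that have expressed Il5. All mice were C57BL/6 and received bleomycin, a drug that injures the lung and is used to model fibrosis, and no age or time after treatment was in the labels used. RNA came from 2 KO and 2 WT samples, each a pool of 3 to 4 mice.

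Leukotrienes are lipid mediators made from arachidonic acid. Arachidonate 5-lipoxygenase, presented with its substrate by the 5-lipoxygenase activating protein (FLAP), makes the unstable epoxide leukotriene A4. Leukotriene A4 hydrolase turns it into leukotriene B4 (LTB4), a chemoattractant of leukocytes, while leukotriene C4 synthase joins it to glutathione to give the cysteinyl leukotrienes, which are known to activate lung ILC2s through calcium and NFAT. A cell that lacks a late enzyme can still pass leukotriene A4 to a neighbour that has it.

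The values come from the authors' comparison of the genotypes. For each gene the authors' deposited table gives baseMean, the mean normalized count over the libraries, a log2 fold change, the standard error (SE) of that change, and a two-sided p. No column of values per library could be matched to a sample, so values per pool and the depth of each library were not analysed here. Which genotype is the numerator is not written in the table. WT comes first in the table's name, so each deposited log2 value was multiplied by -1, and a positive value here means higher in KO. Nrp1, the gene with the floxed allele, then stood lower in KO at -1.18 ± 0.21 (SE) (adjusted p = 1.27e-04 in the authors' deposited table), a value for the whole gene that does not isolate the floxed exons. Defining ILC2 markers were abundant, with baseMean values of 39152 for Gata3, 12090 for Il1rl1 and 6771 for Il5 in the authors' deposited table. Of the 12 ILC2 markers examined all 12 had a negative log2 value, with a median of -0.34, and 0 passed. Of all tested genes 46.0% were negative. Most of the 12 had a baseMean of at least 1000, a class in which 92.9% of tested genes were negative, with a median of -0.25. Counted from that median, 9 of the 12 were negative and 3 positive, and their median was -0.09. Markers of other cells were also present, among them the macrophage gene Lyz2 at a baseMean of 8981, the epithelial gene Sftpc at 6032 and the mast cell gene Cpa3 at 413 in the authors' deposited table. The other macrophage and monocyte markers were far lower than Lyz2, from 4.88 for Itgam to 773 for Chil3.

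The sequences that precede Ltb4r1 and Alox5 are shown because these were the only members with an unadjusted p under 0.05 between genotypes. They are the 250 bases before the annotated RefSeq start, on the gene's own strand, in build GRCm38.p6, at chr14:55765712-55765961 (plus strand) for Ltb4r1 and chr6:116461179-116461428 (minus strand) for Alox5. Capitals mark matches, on either strand, to the SMAD palindrome GTCTAGAC, to the GC box GGGCGG and to the GATA motif spelled GATAA.
Ltb4r1: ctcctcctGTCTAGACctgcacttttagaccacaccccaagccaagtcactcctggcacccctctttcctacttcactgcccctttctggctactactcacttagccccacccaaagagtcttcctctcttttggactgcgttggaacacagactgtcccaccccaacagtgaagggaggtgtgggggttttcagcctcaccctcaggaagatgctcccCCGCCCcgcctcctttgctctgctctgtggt
Alox5: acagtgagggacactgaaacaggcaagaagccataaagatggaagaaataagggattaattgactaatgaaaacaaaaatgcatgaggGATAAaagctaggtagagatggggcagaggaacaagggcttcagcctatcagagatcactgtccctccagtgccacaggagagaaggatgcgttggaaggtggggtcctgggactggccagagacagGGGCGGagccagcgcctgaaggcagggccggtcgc

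In the Ltb4r1 window the palindrome spans bases -242 to -235 before the start and a GC box on the reverse strand spans -31 to -26. In the Alox5 window a GATA match spans bases -162 to -158 and a GC box spans -35 to -30. Of 32851 mouse windows of the same length, 0.167% (55) held GTCTAGAC, 32.7% held GGGCGG and 22.6% held GATAA. RefSeq windows were matched for 6 of the 8 genes. The only other match in them was GATAA before Fpr2, and the windows of Cysltr2, Lta4h and Ltc4s held none of these letters. The motifs were chosen after results were known, the matched capitals do not overlap one another, and a match is a description of letters, not of bound factors.

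In level, Lta4h and Ltb4r1 of the LTB4 branch stood above Ltc4s, Cysltr1 and Cysltr2 of the cysteinyl branch, and the shared step was uneven, with abundant Alox5 and little Alox5ap. To set genes side by side, baseMean was divided by exonic length and is given as normalized counts per kb, for which the median of 19133 tested genes with a length was 25.7 and the quartiles were 5.98 and 106. Ltb4r1 was the most abundant member at 1363 per kb, followed by Alox5 at 1080, Lta4h at 291, Cysltr1 at 206, Cysltr2 at 122, Alox5ap at 24.1, Fpr2 at 4.98 and Ltc4s at 2.45 per kb. These levels are means over both genotypes, and with no spread over pools it cannot be said which neighbours in this order differ beyond their error.

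**Figure D1:**
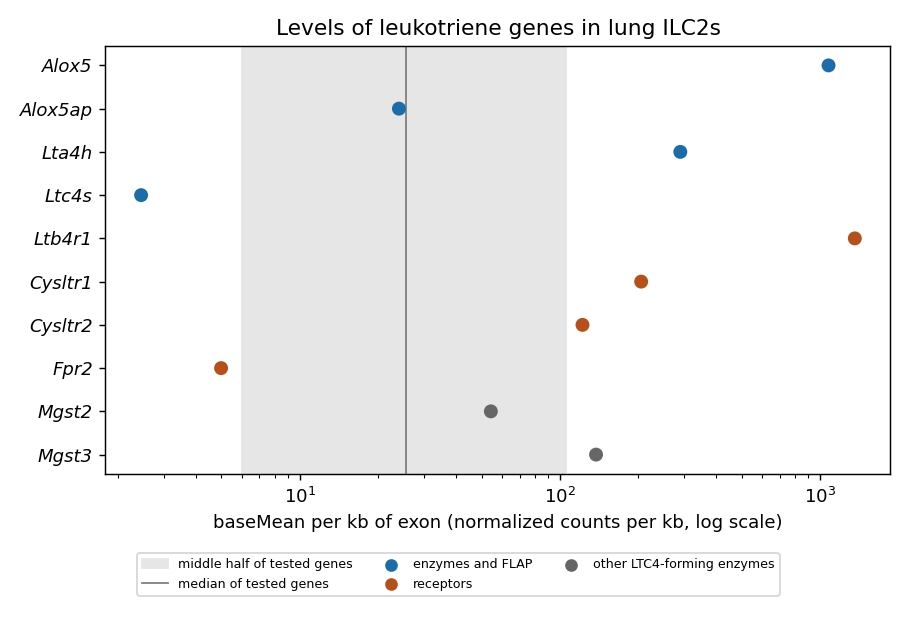
Level of each gene as baseMean per kb of exon on a log axis, over all libraries, with the interquartile range (grey) and median (line) of tested genes. Ltb4r1 and Alox5 lie above 1000 normalized counts per kb, while Ltc4s and Fpr2 lie to the left of the grey band and Mgst2 and Mgst3, other enzymes able to form LTC4, lie above Ltc4s.

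Alox5 (ENSMUSG00000025701, chromosome 6, 116410077 to 116461178, mm10, minus strand) encodes 5-lipoxygenase, the enzyme that opens the pathway. Its level per kb exceeded that of 97.1% of tested genes. Alox5ap (ENSMUSG00000060063, chromosome 5, 149264767 to 149288153) encodes FLAP, the membrane partner that 5-lipoxygenase uses to reach its substrate in cells. It stood at the 48.9th percentile of tested genes, and Alox5 was 44.9 times as abundant per kb. A predicted antisense gene, Gm19719, shares 189 of the 1420 exonic bases of Alox5ap, and reads within that stretch cannot be told apart without strand. The authors' deposited table gives Gm19719 a baseMean of 2.10, against 34.2 for Alox5ap.

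Lta4h (ENSMUSG00000015889, chromosome 10, 93453411 to 93484875), the hydrolase that makes LTB4, lay above 89.3% of tested genes per kb. Ltc4s (ENSMUSG00000020377, chromosome 11, 50236461 to 50238616), the synthase that commits leukotriene A4 to the cysteinyl branch, is listed by the authors' deposited table at a baseMean of 2.49. That lies below 6.71, the lowest baseMean with an adjusted p, so Ltc4s was not tested. Per kb, Lta4h was 118 times as abundant as Ltc4s. A predicted antisense gene, Gm26542, overlaps 268 of the 1014 exonic bases of Ltc4s and the authors' deposited table gives it a baseMean of 4.13, so even the few Ltc4s counts are uncertain.

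The receptors ranged as widely. Ltb4r1 (ENSMUSG00000046908, chromosome 14, 55765962 to 55768494) encodes BLT1, the high-affinity LTB4 receptor, and lay above 97.7% of tested genes per kb. No annotated gene overlaps it. Ltb4r2, which encodes the low-affinity receptor BLT2, ends 823 bases upstream on the same strand and is listed in the authors' deposited table at 6.00 (baseMean), against 1899 for Ltb4r1. The cysteinyl leukotriene receptor genes Cysltr1 (ENSMUSG00000052821, chromosome X, 106574346 to 106603679) and Cysltr2 (ENSMUSG00000033470, chromosome 14, 73025603 to 73049114) lay above 85.5% and 77.4% of tested genes per kb. Ltb4r1 was 6.63 times as abundant as Cysltr1 and 11.1 times as abundant as Cysltr2 per kb.

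Fpr2 (ENSMUSG00000052270, chromosome 17, 17887824 to 17893952), a formyl peptide receptor whose human counterpart binds lipoxin A4 and annexin A1, is listed in the authors' deposited table at 6.46 (baseMean) and was not tested. Its 1296 exonic bases share 48 with the neighbouring paralog Fpr3, so their counts are uncertain. Anxa1, the gene of annexin A1, was 288 times as abundant as Fpr2 per kb.

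Between genotypes, 0 of the 6 tested members passed the Wald test of the authors' deposited table at 0.05 after Benjamini-Hochberg adjustment. Of all 19193 tested genes 0.552% passed, 0.453% (87) as higher and 0.0990% (19) as lower in KO. At an unadjusted p under 0.05, 2 of the 6 members were lower and 0 higher in KO, against 3.95% (lower) and 9.62% (higher) of all tested genes. Those shares depend on abundance, because 92.9% of the 2480 tested genes with a baseMean of at least 1000 had a negative log2 value, with a median of -0.25, and 21.6% of them were lower at an unadjusted p under 0.05. Alox5, Lta4h, Cysltr1 and Ltb4r1 belong to that abundant class. Of the 6 tested members 5 had a negative log2 value, the median being -0.27. The median of all tested genes was 0.08, and that of the abundant class was -0.25. Counted from the median of the abundant class, 3 of the 6 were negative and 3 positive, and their median was -0.02.

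Ltb4r1 was the member with the smallest p. The deposited values imply means of 1535 normalized counts in KO and 2264 in WT. The log2 fold change was -0.56 ± 0.20 (SE), and the authors' deposited table gives it p = 0.00461 unadjusted and p = 0.147 adjusted. The 95% interval of the ratio of KO to WT ran from 0.518 to 0.887. Among the 2480 abundant genes only 1.69% had a lower log2 value. Counted from the median of those genes, Ltb4r1 stood at -0.31, with an unadjusted p of 0.118.

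Alox5 had implied means of 3700 normalized counts in KO and 5167 in WT. The authors' deposited table gives -0.48 ± 0.23 (SE), with an unadjusted p of 0.0388 and an adjusted p of 0.331. The interval of the ratio ran from 0.522 to 0.983, and 5.16% of abundant genes had a lower log2 value. Centred on abundant genes it was -0.23 (unadjusted p of 0.323). The enzyme that opens the pathway and the receptor at the end of its LTB4 branch had the lowest log2 values among tested members, and neither passed over all genes.

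Lta4h, the step between them, had implied means of 1643 normalized counts in KO and 1905 in WT. Its log2 fold change of -0.21 ± 0.19 (SE; adjusted p = 0.658) in the authors' deposited table was close to the median of abundant genes, and centring turned it to 0.04. The 95% interval of the ratio, 0.668 to 1.11, includes 1, so neither a lower nor an equal level was shown.

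Cysltr1 had implied means of 966 normalized counts in KO and 1147 in WT, with a log2 fold change of -0.25 ± 0.20 (SE; adjusted p = 0.622) in the authors' deposited table. After centring it was 0.00, with 50.8% of abundant genes lower. Cysltr2 had implied means of 316 normalized counts in KO and 386 in WT and the authors' deposited table puts it at -0.29 ± 0.37 (SE; adjusted p = 0.788). The interval of its ratio, 0.493 to 1.36, is wider than the 0.640 to 1.11 of Cysltr1. Whether the LTB4 receptor differed more than the cysteinyl receptors was not tested, and their intervals overlap.

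**Figure D2:**
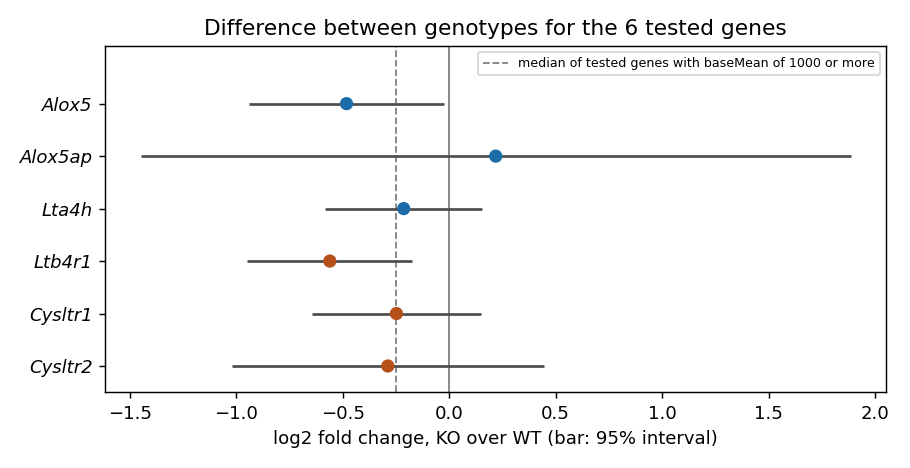
Log2 fold change, KO over WT, of the 6 tested members (blue, enzymes and FLAP; orange, receptors) with 95% intervals; the dashed line is the median of tested genes with a baseMean of at least 1000 (-0.25). The intervals of Ltb4r1 and Alox5 exclude 0 before adjustment for the number of genes and include the dashed line, and that of Alox5ap is the widest.

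Alox5ap had implied means of 36.8 normalized counts in KO and 31.6 in WT. At 0.22 ± 0.85 (SE; adjusted p = 0.943) in the authors' deposited table, its interval ran from a ratio of 0.367 to 3.69, so it held both the size of the Nrp1 difference (a ratio of 0.442) and a ratio of 2, which were not detectable at this abundance. The untested members had wider errors still, with Ltc4s at 2.01 ± 3.21 (unadjusted p = 0.530) and Fpr2 at 3.01 ± 2.22 (unadjusted p = 0.175) in the authors' deposited table. Those 2 values are fitted quantities from very few reads and give no measured fold. Of tested genes with a baseMean under 100, 81.8% had a positive log2 value.

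**Figure D3:**
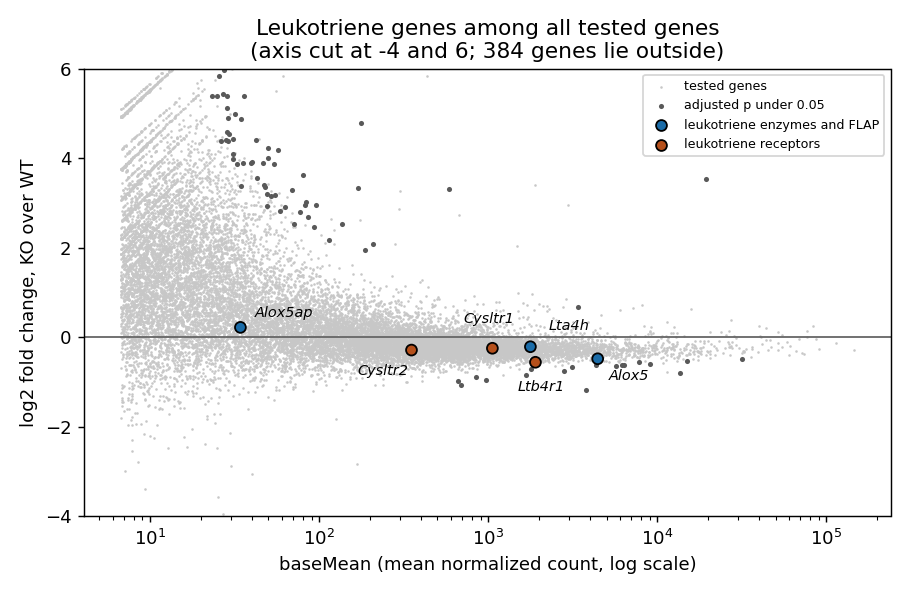
Log2 fold change, KO over WT, against baseMean on a log axis for tested genes, with the 6 tested members in colour and genes past an adjusted p of 0.05 in dark grey; 384 genes lie outside the vertical range drawn. Abundant genes sit mostly below 0 and scarce genes above it, and the members follow that trend with Ltb4r1 and Alox5 toward its lower edge.

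Leukocytes other than ILC2s make and sense leukotrienes, and in bulk RNA fewer cells of a type and less RNA per cell cannot be told apart. Of 9 macrophage and monocyte markers, 8 were tested and all 8 had a positive log2 value (0 passed), with summed implied levels of 10758 normalized counts in KO and 9598 in WT, Lyz2 making up most of both. Lyz2 stood at 0.14 ± 0.20 (SE) in the authors' deposited table. Adgre1, Marco, Ly6c2 and Mrc1 had a baseMean under 100, where 81.8% of tested genes were positive. From 100 to 1000, the class of Cd68, Csf1r and Chil3, the share was 30.2%, and at 1000 or more, the class of Lyz2, it was 7.10%. The 8 neutrophil markers summed to 121 in KO and 116 in WT, and 3 of the 5 tested were negative. None of the 8 exceeded a baseMean of 34.4 (S100a9), and 18.2% of tested genes with a baseMean under 100 were negative. The 5 eosinophil markers summed to 52.9 in KO and 26.5 in WT, but none exceeded a baseMean of 12.8 (Siglecf) and 2 were not tested. These sums rest on very few reads and give no measured fold. The 3 tested were positive, as were 81.8% of tested genes with a baseMean under 100. Of the 9 mast cell and basophil markers found, which summed to 12409 in KO and 14208 in WT, most of the sum was Kit, which ILC2s and their precursors can also express. None of these markers was at 0. Among mast cell and basophil genes, baseMean in the authors' deposited table was 413 for Cpa3 and 396 for Hdc but 1.61 for Cma1 and 3.71 for Mcpt8. Among neutrophil genes it was 32.6 for S100a8, 34.4 for S100a9 and 0.371 for Ly6g, and the eosinophil gene Prg2 was at 1.45, in the authors' deposited table. The 7 T cell markers summed to 3322 normalized counts in KO and 4883 in WT, and 5 of the 6 tested were negative. Trbc1 and Cd3g, with baseMean values of 2938 and 963, made up most of both sums. The others were scarcer, at 114 for Trac, 51.8 for Cd3e, 18.1 for Cd3d, 13.8 for Cd4 and 3.84 for Cd8a. Cd3d stood at -0.02 ± 1.15 and Cd4 at 1.25 ± 1.40 (SE) in the authors' deposited table. Cd3g, which encodes the CD3 gamma chain, was the only marker of any list to pass, at -0.96 ± 0.24 (SE; adjusted p = 0.0292) by the authors' deposited table, and Trbc1 stood at -0.46 ± 0.18 (SE; adjusted p = 0.192) there. The 5 dendritic cell markers summed to 1179 in KO and 1508 in WT, and the 5 B and plasma cell markers to 2840 in KO and 3429 in WT. Positive log2 values were seen for 3 of the 5 dendritic cell markers and 4 of the 5 B and plasma cell markers. Ighm, at -0.51 ± 0.18 (SE) in the authors' deposited table, made up most of the B and plasma cell sums. Structural cell markers summed to 10234 in KO and 5918 in WT for epithelium, 2086 and 1619 for endothelium, and 2418 and 1262 for fibroblasts, and 0 passed. Most of the epithelial sums came from Sftpc (0.60 ± 1.44) and Scgb1a1 (2.04 ± 1.00, SE) in the authors' deposited table. Epcam (0.11 ± 0.34) and Cdh1 (-0.03 ± 0.33) stood near 0 there. Col1a1, at 0.99 ± 1.31 (SE), made up most of the fibroblast sums, so these sums carry large errors. The part of any of these cells in the member values was not tested.

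The wider pathway was followed in 51 further names, of which 50 were found (Gpr99 is another name of Oxgr1) and 42 tested. Of these, 0 passed at 0.05 by the adjusted values of the authors' deposited table, against the 0.552% of all tested genes. At an unadjusted p under 0.05, 3 were higher and 5 lower in KO, and the median log2 fold change was -0.11. Of all tested genes 9.62% were higher and 3.95% lower at that p, and 21.6% of the abundant class were lower. Scaling decides the balance of signs, with 19 positive and 23 negative as deposited but 28 positive and 14 negative when centred on abundant genes. Over all tested genes the negative share was 46.0% as deposited and 23.8% when centred.

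Levels of the 9 genes that supply or accompany 5-lipoxygenase varied widely, with a median baseMean of 47.8. Cotl1, a coactosin-like protein that binds 5-lipoxygenase in human cells, had 7277 normalized counts per kb, and Lpcat2, which makes platelet-activating factor, had 1893. They stood at -0.09 ± 0.19 and -0.11 ± 0.17 (SE) in the authors' deposited table, and both turned positive on centring. Dicer1, a ribonuclease whose human form binds 5-lipoxygenase, stood at 0.07 ± 0.38 (SE) in the authors' deposited table. Of the phospholipases A2 that release arachidonic acid, Pla2g4a, the cytosolic enzyme most tied to leukotrienes, had only 7.48 normalized counts per kb. Pla2g4c stood at 2.70 ± 0.93 (SE; adjusted p = 0.136) in the authors' deposited table, at a baseMean of 44.9. It belongs to the 3 genes higher at an unadjusted p under 0.05, with the epidermal lipoxygenase Aloxe3 (2.87 ± 1.33) and the receptor Gpr17 (4.89 ± 1.90) in the authors' deposited table. All 3 had a baseMean under 100, where 17.6% of tested genes were higher at that p. Alox8 and Alox12, other lipoxygenases, stood at 0.29 ± 0.51 and -0.23 ± 1.03 (SE) in the authors' deposited table.

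Past leukotriene A4, the glutathione transferases Mgst3 and Mgst2, which can also form LTC4, had 138 and 54.3 normalized counts per kb, 56.1 and 22.1 times the level of Ltc4s. They stood at -0.49 ± 0.43 (adjusted p = 0.663) and 0.05 ± 0.38 (0.975) in the authors' deposited table. Abcc1, the transporter that exports LTC4, was lower at an unadjusted p of 0.0329, with -0.44 ± 0.21 (SE; adjusted p = 0.309) in the authors' deposited table. Ggt5, which converts LTC4 to LTD4, and Abcc4 stood at -0.16 ± 0.32 and -0.12 ± 0.41 (SE) in the authors' deposited table, and both turned positive on centring. Ptgr1, a reductase that inactivates LTB4, stood at 0.74 ± 0.67 (SE) in the authors' deposited table. In the Cyp4f family, which includes hydroxylases of LTB4, Cyp4f13 stood at -0.29 ± 0.28 and Cyp4f18 at 1.54 ± 1.04 (SE) in the authors' deposited table.

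The remaining receptors were scarce. Of 8 found, none exceeded a baseMean of 14.6 (Cmklr1) in the authors' deposited table, and Gpr18, a resolvin receptor, stood at -0.16 ± 1.48 (SE) there. Fpr3 had an unadjusted p of 0.0147 in the authors' deposited table, where it has no adjusted value, and a baseMean of 5.97. The ligand gene Anxa1 had 1434 normalized counts per kb and stood at -0.11 ± 0.18 (SE; adjusted p = 0.845) in the authors' deposited table. Saa3 and Camp, whose products are also FPR2 ligands, had baseMean values of 36.2 and 2.00 in the authors' deposited table.

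Signalling genes downstream of the receptors were all tested, 13 of 13, and 11 had a negative log2 value, with a median of -0.27. At an unadjusted p under 0.05, 4 of the 13 were lower in KO. Of all tested genes 46.0% were negative and 3.95% were lower at that p, and of those with a baseMean of at least 1000 the shares were 92.9% and 21.6%. Gna15, Plcb3, Gnaq, Gna11 and Plcb2 had a baseMean of 100 to 1000, where the shares were 69.8% and 3.20%. The 4 were the G protein subunit Gna15 (-0.64 ± 0.26, adjusted p = 0.213) and the phospholipase Plcb3 (-0.53 ± 0.24, 0.279), with the calcium sensor Stim1 (-0.40 ± 0.17, adjusted p = 0.227) and the inositol trisphosphate receptor Itpr2 (-0.31 ± 0.14, 0.319) in the authors' deposited table. Gnai2, the inhibitory subunit to which BLT1 couples, stood at -0.17 ± 0.18 (SE) in the authors' deposited table. The NFAT genes Nfatc1, Nfatc2 and Nfatc3 lay between -0.27 and -0.24 in the authors' deposited table, close to the median of abundant genes. On centring, 9 of the 13 stayed negative and their median was -0.02.

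**Figure D4:**
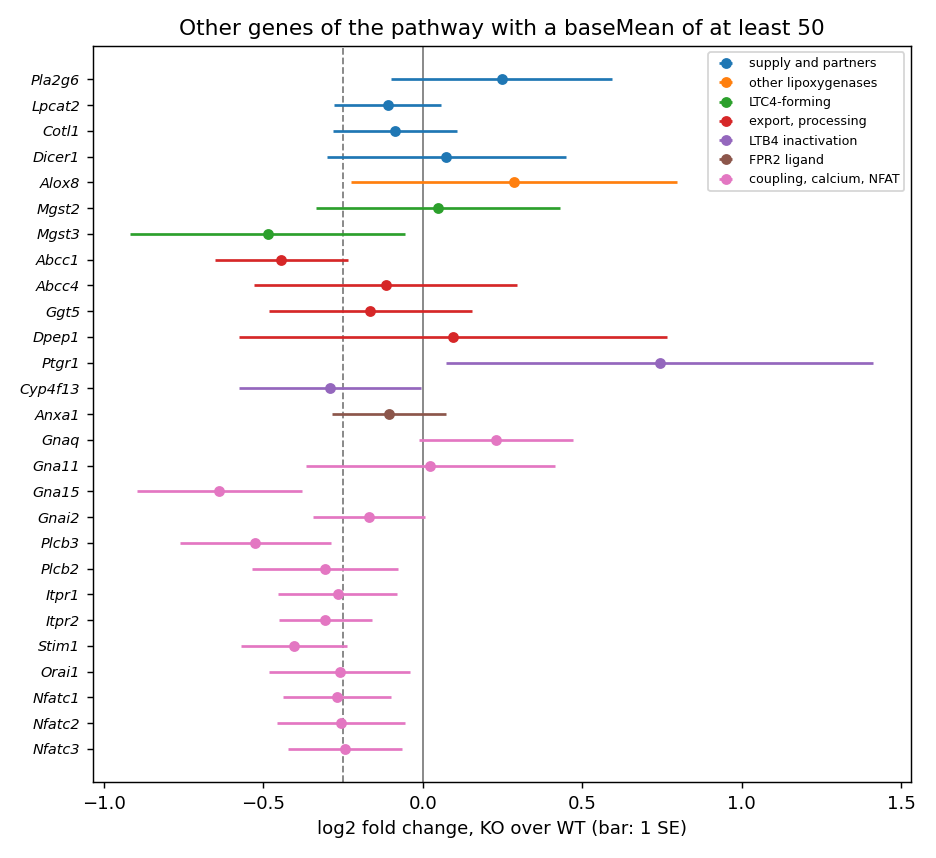
Log2 fold change, KO over WT, with 1 SE, of the 27 other pathway genes with a baseMean of at least 50, coloured by role; the dashed line is the median of tested genes with a baseMean of at least 1000. Most genes of receptor coupling, calcium and NFAT lie near the dashed line, with Gna15, Plcb3 and Stim1 to its left.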

How the data were processed

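Lung ILC2 RNA was profiled in 2 KO and 2 WT pools, grouped by their titles. Per the labels' protocols, RNA was extracted with Trizol, the SMART-Seq HT kit gave full-length cDNA and a TruePrep kit the libraries. The submitters' processing notes name HISAT2, Cufflinks and mm10 and give no roles; the counter and annotation release are not given in the sources used. Neither kit is described as marking strand. Nothing states that pools share a day or batch.

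The authors deposited, per the file headers, baseMean (a signal: the mean normalized count over all libraries), the log2 fold change and its SE, a Wald statistic (a score), and both the raw and the adjusted p-value, under the headings of a DESeq2 results table. A further 8 columns of per-library values match no sample label and were not used, so count models, levels per pool and depth per library were not analysed here and intervals rest on the deposited SE. The plan had allowed for a count model. The statistic equalled the log2 fold change over its SE within 5.35e-08, and Benjamini-Hochberg adjustment over the 19193 genes with an adjusted p matched it within 3.96e-05.

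Computed here, with Python 3.11.15 and scipy 1.17.1, were 95% normal intervals, genotype means implied by baseMean and the log2 value (with both genotypes weighted equally), levels per kb of exon from GENCODE M21 (mm10), and centring, which subtracts the median log2 value (-0.25) of tested genes whose baseMean is at least 1000. Adjustment and centring were tested on simulated data. Members and lists were chosen with earlier results of these data known. Named were all members, Nrp1, and from the pathway list up to 3 genes per role by baseMean and those with an unadjusted p under 0.05. Pla2g4a, Ltb4r2 and the NFAT genes, and the markers given, were named after their values were seen. A name with several identifiers was taken by its most abundant row.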

Additional observations from a re-analysis of the deposited data

How the results depend on the processing

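No paired analysis was possible because no column of values per library matches a sample, and leaving out a replicate could not be run for the same reason. The counts of members called (0 higher and 0 lower) and of other pathway genes called (0 and 0) kept these values without a filter on low values, with a baseMean of at least 50, with protein-coding genes alone, with centring and at an adjusted p under 0.1. Over all genes, 87 were higher and 19 lower as deposited, against 21 and 2 without a filter, 22 higher with a baseMean of at least 50, 39 higher with protein-coding genes alone, 225 and 2 with centring, and 266 and 40 at an adjusted p under 0.1. By construction a filter alters how many genes enter the adjustment, and centring raises every log2 value by 0.25. For named genes, direction and call were kept in 113 comparisons. The filters leave the log2 values as deposited, so direction could turn only under centring. There direction and call were kept in 22 comparisons and the direction turned in 10. The 10 were Lta4h (0.0380), Cysltr1 (0.00380), Cotl1 (0.16), Lpcat2 (0.14), Alox12 (0.0201), Ggt5 (0.0872), Abcc4 (0.13), Gpr18 (0.0927), Anxa1 (0.15) and Gnai2 (0.0824). None of these was past the test as deposited or centred. The few reads of Ltc4s, Fpr2 and Alox5ap limit what can be said of them, and with 2 pools a genotype the errors of all members rest on a spread shared across genes.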
